A study of Mus musculus with 30 samples.

Results

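The mitosis genes described here are 50 genes that act between entry into mitosis and the separation of the daughter cells. They were picked out of the count tables by gene symbol, as the rows whose Ensembl identifier carries a member symbol, and the list itself was drawn up with earlier results of these data known. All 50 had a row among the 56941 genes counted, and all 50 were read in each of the 30 libraries and passed the filter on low counts, so that no member was left out of a test. The read count of a member in the library where it was lowest ranged from 4 for Kif20a to 1048 for Top2a.

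The libraries came from mHypoA-2/12 (Clu177), an immortalized line that was derived from the hypothalamus of adult mice. The cells were exposed to cannabidiol (CBD), a non-intoxicating compound of the hemp plant, at 0.325 µM, 0.75 µM, 1.5 µM or 3 µM for 6 h or 24 h. The CBD was given in DMEM with GlutaMAX at a final 0.1% DMSO. The vehicle groups received 0.1% DMSO in the same medium for the same times. Each of the 10 groups held 3 libraries, and since nothing in the labels says that these came from separate cultures, p-values measure only the spread between these libraries, which may be technical. RNA was read from the 3′ ends of transcripts (QuantSeq), with 1839621 to 4420675 reads on genes per library. Levels are given as CPM, reads scaled to a common library size after TMM normalization, and because only 3′ ends were sequenced, a level is compared between libraries and not between genes. Of 12 neuronal markers, 8 averaged at least 1 CPM, among them Tubb3 (49.3 CPM) and Map2 (23.3 CPM), while Rbfox3 (0.589 CPM) and Snap25 (0.0406 CPM) were near 0. Of 12 hypothalamic neuropeptides only Gnrh1 reached 1 CPM, and all 8 mesenchymal markers did, with Vim at 2209 CPM.

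Cells enter mitosis when Cdk1, bound to a B-type or A-type cyclin, is activated by Cdc25 phosphatases. Polo-like and Aurora kinases then mature the spindle, kinetochores on the centromeres capture microtubules, and the spindle assembly checkpoint holds the anaphase-promoting complex inactive until every chromosome is attached. Cdc20 switches that complex on, securin and B-type cyclins are degraded, and kinesins, the central spindle and the contractile ring divide the cell. Most genes of this machinery are transcribed in late S, G2 and M phase, through promoters that carry a CHR element, read by the MuvB complex with B-Myb or FoxM1, and CCAAT boxes, read by NF-Y. In RNA from a whole culture, a lower share of cells in mitosis and less RNA per mitotic cell cannot be told apart.

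That promoter design was visible in the sequences of the members. RefSeq promoter windows, which run from 250 bases before to 50 bases after a transcription start on GRCm38.p6, were at hand for 42 of the 50 genes, in 45 windows. The core letters of the CHR element, TTTGAA or TTCGAA on either strand, occurred in 37 of these 45 windows (82.2%), against 19.2% of all 32851 windows. The CCAAT box, searched as CCAAT on both strands, occurred in 35 (77.8%) against 37.4% of all windows. Both were found together in 33 windows (73.3%) and in 7.52% of all windows. The genes with neither a CHR core nor a CCAAT box in their window were Birc5, Mad2l1, Ncaph, Nuf2, Nusap1 and Pttg1. A match of letters is a description and not a measured binding site.

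The 150 bases before the start are shown for 5 members that the results turn on. Cdk1 (chr10:69352913-69353062, minus strand) and Cdc20 (chr4:118437344-118437493, minus strand) were lower at 3 µM of CBD than at the lower doses after 24 h. Ccnb2 (chr9:70421555-70421704, minus strand) and Nusap1 (chr2:119618148-119618297, plus strand) rose with time in vehicle, and Plk1 (chr7:122159285-122159434, plus strand) fell. Capitals mark CCAAT, its complement ATTGG, and TTTGAA, as written 5′ to 3′ on the strand of the gene. In this stretch Cdk1 held 2 CHR cores and 2 CCAAT boxes, Cdc20 held 1 and 2, Ccnb2 held 0 and 3, Plk1 held 0 and 1, and Nusap1 held neither. The remaining matches of Ccnb2 and Plk1 lay in other parts of their windows, which are not shown.
Cdk1: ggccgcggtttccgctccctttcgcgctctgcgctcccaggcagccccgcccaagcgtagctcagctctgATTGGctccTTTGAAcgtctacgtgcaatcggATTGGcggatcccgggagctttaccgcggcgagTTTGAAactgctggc
Cdc20: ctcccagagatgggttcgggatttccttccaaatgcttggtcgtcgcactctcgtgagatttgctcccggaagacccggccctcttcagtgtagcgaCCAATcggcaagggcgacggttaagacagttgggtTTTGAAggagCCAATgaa
Ccnb2: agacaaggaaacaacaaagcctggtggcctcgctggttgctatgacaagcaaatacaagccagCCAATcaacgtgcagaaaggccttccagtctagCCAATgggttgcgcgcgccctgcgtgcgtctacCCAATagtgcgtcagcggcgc
Plk1: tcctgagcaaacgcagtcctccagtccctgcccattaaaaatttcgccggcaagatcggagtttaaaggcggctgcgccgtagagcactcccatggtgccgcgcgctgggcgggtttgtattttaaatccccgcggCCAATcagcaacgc
Nusap1: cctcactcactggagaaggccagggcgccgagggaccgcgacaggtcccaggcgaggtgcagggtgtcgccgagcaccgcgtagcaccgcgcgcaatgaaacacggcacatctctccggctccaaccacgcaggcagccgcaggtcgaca

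More mitosis genes differed between the 2 times in vehicle than between any dose of CBD and vehicle, and so did more of all genes. Between the vehicle libraries of 6 h and 24 h, 13 mitosis genes rose and 1, Plk1, fell (edgeR quasi-likelihood F-test on all 30 libraries, Benjamini-Hochberg FDR below 0.1 over 12790 genes). These 14 genes are 28% of the members, against 26.7% of all genes tested, so the share that changed was close to the background. The direction was less even than in the background: 26% of the members rose and 12.5% of all genes did, while 2% of the members and 14.2% of all genes fell. The fold change was above 0 for 40 of the 50 members and for 48.1% of all genes, and its median was 0.20 on the log2 scale for the members and -0.03 for all genes. The vehicle libraries of the 2 times did not overlap for 13 higher members and 1 lower member, which is 28%, and did not overlap for 31.8% of all genes.

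**Figure D1:**
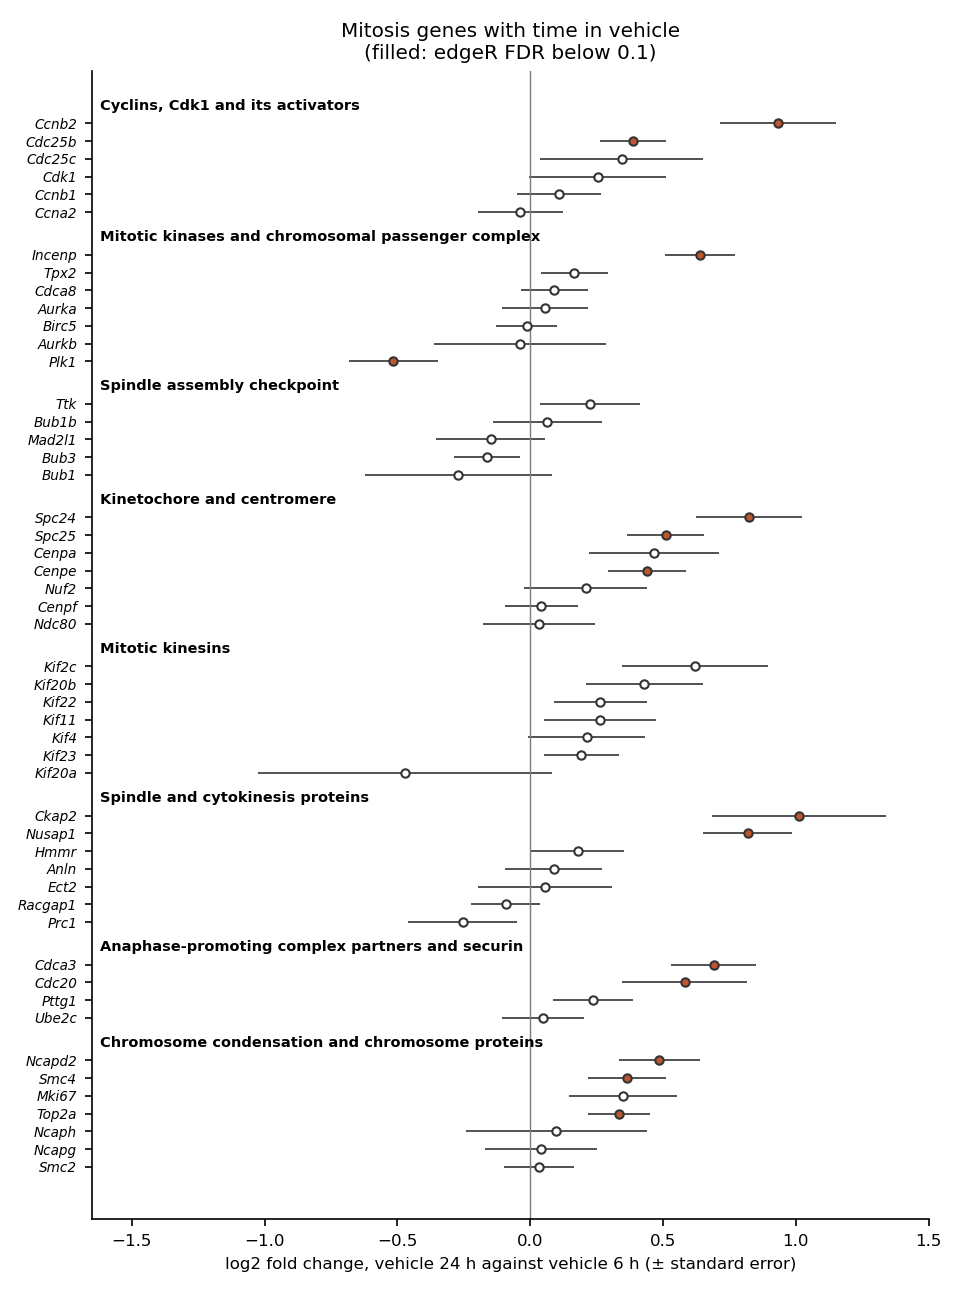
Log2 fold change of each mitosis gene in vehicle at 24 h against vehicle at 6 h (x axis) with its standard error, 3 libraries a group, genes grouped by role. Filled points passed an edgeR FDR of 0.1: 13 lie right of 0 and Plk1 lies left of it, and all 7 genes of the kinetochore and all 7 of chromosome condensation lie right of 0.

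Among the cyclins, Cdk1 and its activators, Ccnb2 and Cdc25b rose. Ccnb2, a B-type cyclin that partners Cdk1, was at 31.7, 24.0 and 32.5 CPM in the vehicle libraries of 6 h and at 62.9, 42.4 and 64.3 CPM in those of 24 h. All 3 libraries of 24 h were above all 3 of 6 h, and the log2 fold change was 0.93 (standard error 0.22, edgeR FDR = 0.00233). Cdc25b, a phosphatase that activates Cdk1, was at 153 ± 20.7 CPM at 6 h and 199 ± 7.28 CPM at 24 h (SD, n = 3, log2 fold change 0.39, edgeR FDR = 0.0241). Without the third vehicle library of 6 h its FDR was 0.133. Ccnb1, the main mitotic cyclin, was at 96.8, 81.6 and 143 CPM at 6 h and at 122, 118 and 111 CPM at 24 h. For Cdk1, the kinase itself, the values were 118, 129 and 279 CPM at 6 h and 297, 164 and 175 CPM at 24 h. The groups of these 2 genes overlapped, and neither passed the test (edgeR FDR = 0.682 for Ccnb1 and 0.529 for Cdk1).

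The third vehicle library of 6 h stood apart from the other 2 for several genes of mitotic entry. Its Cdk1 level of 279 CPM was above those of all other libraries of 6 h, and its Cenpa level of 105 CPM lay against 42.8 and 52.8 CPM in the other 2. In the same library 17.9% of the uniquely placed reads fell outside genes, against 21.4% and 20.8% in the other 2 vehicle libraries of 6 h. Without it, 13 members were called with time in vehicle, of which 9 were among the 14. The share of all genes called in that fit is not given, so the 13 are not set against a background. The calls of Cdc25b, Ncapd2, Smc4, Spc25 and Top2a were lost, and Ccnb1, Cdk1, Cenpa and Kif2c were called in their place.

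Of the mitotic kinases and the chromosomal passenger complex, Incenp rose and Plk1 fell. Incenp, the scaffold of the passenger complex that carries Aurora B to centromeres, was at 164, 163 and 114 CPM at 6 h and at 212, 229 and 242 CPM at 24 h in vehicle. The 2 times did not overlap (log2 fold change 0.64, standard error 0.13, edgeR FDR = 0.000591). Plk1 (ENSMUSG00000030867), the polo-like kinase that drives mitotic entry and spindle assembly, was at 132, 148 and 145 CPM at 6 h and at 109.5, 101 and 86.8 CPM at 24 h. All its libraries of 24 h lay below those of 6 h (log2 fold change -0.52, standard error 0.17, edgeR FDR = 0.0260). Without the third vehicle library of 24 h its FDR was 0.141, and when the fit took account of how many reads fell outside genes it was 0.165. Aurkb, the kinase of the passenger complex, was at 11.7 ± 1.60 CPM and 11.6 ± 3.70 CPM (SD, n = 3, log2 fold change -0.04, edgeR FDR = 0.951). None of the 5 genes of the spindle assembly checkpoint passed the test, and Bub1b, the checkpoint protein BubR1, was at 29.3 ± 6.72 CPM and 31.2 ± 1.08 CPM (SD, n = 3, edgeR FDR = 0.859).

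At the kinetochore, 3 of 7 genes rose and all 7 fold changes were above 0. Spc24, a subunit of the Ndc80 complex that binds microtubules, was at 42.8, 61.4 and 39.7 CPM at 6 h and at 89.2, 74.6 and 87.9 CPM at 24 h. The groups did not overlap (log2 fold change 0.82, standard error 0.20, edgeR FDR = 0.00318). Its partner Spc25 had a log2 fold change of 0.51 (edgeR FDR = 0.0107, and 0.105 without the third vehicle library of 6 h), and the other 2 subunits of that complex, Ndc80 and Nuf2, did not pass the test (log2 fold change 0.03 for Ndc80). Cenpe, a kinesin that moves chromosomes along the spindle, was at 66.2, 65.1 and 65.0 CPM at 6 h and at 79.4, 80.2 and 107 CPM at 24 h (log2 fold change 0.44, edgeR FDR = 0.0305). Without the third vehicle library of 24 h, its FDR was 0.210, and when the share of reads outside genes entered the fit it was 0.106. Cenpa, the histone H3 variant that marks centromeres, had a log2 fold change of 0.47 with a standard error of 0.24 (edgeR FDR = 0.178), and the value for Cenpf, a large protein of the outer kinetochore, was 0.04.

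Of the mitotic kinesins none passed the test. Kif11, which pushes the spindle poles apart, was at 19.5, 15.5 and 24.99 CPM at 6 h and at 21.7, 25.9 and 26.3 CPM at 24 h (edgeR FDR = 0.407). Kif20a, a kinesin of cytokinesis and the member with the fewest reads, was at 8.34, 5.34 and 2.50 CPM at 6 h and at 5.36, 1.989 and 3.37 CPM at 24 h. Among the proteins of the spindle and of cytokinesis, Nusap1 and Ckap2 rose. Nusap1 (ENSMUSG00000027306), which bundles spindle microtubules around chromosomes, was at 57.8, 57.6 and 64.1 CPM at 6 h and at 126, 96.1 and 94.9 CPM at 24 h. The libraries of 24 h were all above those of 6 h (log2 fold change 0.82, standard error 0.17, edgeR FDR = 0.000591). Ckap2, a microtubule-associated protein, was at 11.7, 10.7 and 23.9 CPM at 6 h and at 22.4, 26.2 and 50.5 CPM at 24 h. These 2 ranges overlapped, and its log2 fold change of 1.01 had a standard error of 0.33 (edgeR FDR = 0.0246). Without the second vehicle library of 6 h the FDR of Ckap2 was 0.116, and without the third of 24 h it was 0.267, with a log2 fold change of 0.59. Prc1, which bundles the central spindle, had a log2 fold change of -0.25 (edgeR FDR = 0.413).

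Around the anaphase-promoting complex, Cdca3 and Cdc20 rose. Cdca3, an adaptor in the degradation of the Cdk1 inhibitor Wee1, was at 71.2, 49.6 and 61.6 CPM at 6 h and at 111, 87.5 and 94.9 CPM at 24 h. The libraries of 24 h lay above all those of 6 h (log2 fold change 0.69, standard error 0.16, edgeR FDR = 0.00210). Cdc20, the activator of the complex, was at 25.6, 24.5 and 53.9 CPM at 6 h and at 71.7, 49.7 and 39.4 CPM at 24 h. The 2 groups of Cdc20 overlapped (log2 fold change 0.58, standard error 0.24, edgeR FDR = 0.0757), and its call was lost without the first or second vehicle library of 6 h or the first of 24 h, and with only the 6 vehicle libraries fitted (FDR 0.190). Ube2c, the ubiquitin-conjugating enzyme of the complex, was at 160 ± 25.1 CPM and 165 ± 34.6 CPM (SD, n = 3).

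In chromosome condensation, Ncapd2, Smc4 and Top2a rose, and all 7 fold changes were above 0. The condensin subunits Ncapd2 and Smc4 had log2 fold changes of 0.49 (edgeR FDR = 0.0198) and 0.36 (edgeR FDR = 0.0739). Ncapg, another condensin subunit, was at 23.9, 34.7 and 25.3 CPM at 6 h and at 24.0, 30.8 and 31.3 CPM at 24 h. Top2a, the topoisomerase that untangles sister chromatids, was at 583, 600 and 411 CPM at 6 h and at 710, 642 and 654 CPM at 24 h (log2 fold change 0.33, edgeR FDR = 0.0361). Its 2 groups did not overlap, and without the third vehicle library of 6 h, its lowest, the FDR was 0.267. It was 0.141 when the share of reads outside genes entered the fit and 0.168 with only the 6 vehicle libraries fitted. Without the first vehicle library of 24 h the FDR was 0.117 for Top2a and 0.177 for Ncapd2. The call of Smc4 was lost without the first or the third vehicle library of either time, with the share of reads outside genes in the fit (FDR 0.152) and with only the 6 vehicle libraries (FDR 0.168). For Mki67, a protein of the surface coat of mitotic chromosomes and a common marker of dividing cells, the log2 fold change was 0.35 (edgeR FDR = 0.233).

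The calls of Nusap1, Incenp, Cdca3, Ccnb2 and Spc24 held in all 37 alternative fits run for them, with an edgeR or DESeq2 FDR of at most 0.0286. The count of members called with time in vehicle lay between 10 and 15 when any of the 30 libraries was left out. It was lowest without the first or the third vehicle library of 24 h. The share of all genes called in those fits is not given beside these counts.

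The change with time was also measured within each dose, between the CBD libraries of the 2 times. These comparisons came from the same fit of all 30 libraries as the vehicle comparison and shared its estimate of the spread. At 0.325 µM, 11 members were called (9 higher), which is 22%, against 25.9% of all genes tested, and 11.9% of all genes tested were called higher. At 0.75 µM, 14 members were called (10 higher), which is 28%, against 26.5% of all genes tested, and 13.5% of all genes tested were called higher. At 1.5 µM, 13 members were called (9 higher), which is 26%, against 23.5% of all genes tested, and 11.1% of all genes tested were called higher. At 3 µM, 7 members were called (5 higher), which is 14%, against 16.6% of all genes tested, and 8.8% of all genes tested were called higher. The share called was therefore close to that of all genes at every dose. The number of members with a fold change above 0 was 40 in vehicle and then 32, 28, 32 and 26 with rising dose. Its median log2 value was 0.20, 0.16, 0.09, 0.12 and 0.00 in the same order, and whether these medians differ between doses was not tested.

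Cdca3 rose and Plk1 fell in all 5 groups, which is 4% of the members. One direction throughout the 5 groups was seen in 5.07% of all genes. Plk1 ranged from 85.3 to 202 CPM over the 15 libraries of 6 h and from 86.8 to 109.5 CPM over the 15 of 24 h, and its log2 fold change with time lay between -0.75 at 3 µM and -0.42 at 1.5 µM. Spc24 and Ccnb2 were called higher in vehicle and at the 3 lower doses, and at 3 µM their edgeR FDR was 0.154 and 0.105. Ncapd2 had log2 fold changes with time of 0.49 in vehicle and 0.50, 0.55 and 0.61 at the 3 lower doses, with an edgeR FDR of at most 0.0198, and 0.05 at 3 µM (edgeR FDR = 0.877). Cdk1 had 0.67 at 0.325 µM (edgeR FDR = 0.0624) and -0.57 at 3 µM (edgeR FDR = 0.166).

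**Figure D2:**
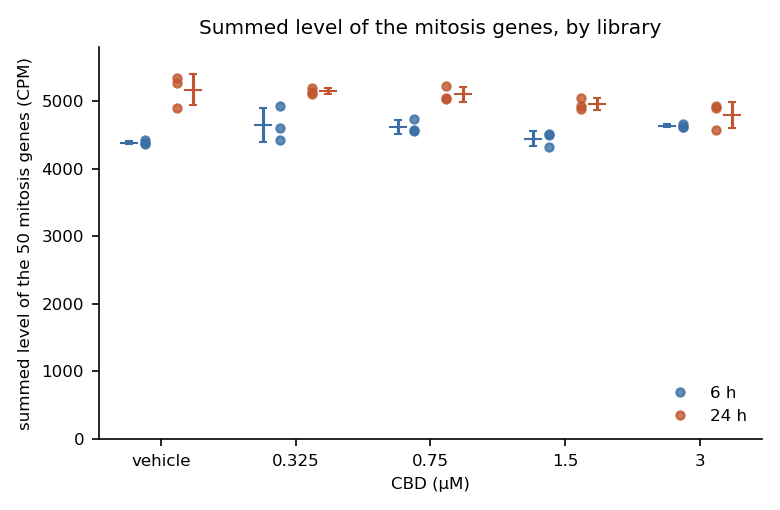
Summed level of the 50 mitosis genes (CPM, y axis) in each of the 30 libraries by CBD dose (x axis), with the mean and SD of the 3 libraries beside the points. Vehicle libraries sum to 4364 to 4419 CPM at 6 h and to 4904 to 5340 CPM at 24 h, and the libraries of 3 µM at 24 h sum to 4579 to 4930 CPM.

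Together the 50 genes took 4387 ± 28.3 CPM (SD, n = 3) in vehicle at 6 h and 5169 ± 233 CPM in vehicle at 24 h. No vehicle library of 24 h was as low as any of 6 h. After 24 h, the mean sums were lower with each dose step, from 5147 ± 43.0 CPM at 0.325 µM through 5102 ± 110 CPM and 4955 ± 85.7 CPM to 4801 ± 193 CPM at 3 µM (SD, n = 3). Libraries of neighbouring doses overlapped, and the libraries of 3 µM overlapped with those of vehicle. After 6 h the sums were 4651 ± 251, 4620 ± 101, 4446 ± 108.7 and 4634 ± 21.9 CPM at the same doses, in no order of dose. Every library of 6 h at 0.325 µM, 0.75 µM and 3 µM was above all 3 vehicle libraries of 6 h, by at least 4427 against at most 4419 CPM, while those of 1.5 µM overlapped with vehicle. Scaled by library totals alone, those of 0.325 µM overlapped too. The fall of the sum after 24 h was not even over the 8 roles. Between 0.325 µM and 3 µM the cyclins, Cdk1 and its activators differed most, with mean sums of 765 and 556 CPM. Genes with many reads weigh most in such a sum. Cdk1 was at 310, 306 and 234 CPM at 0.325 µM and at 80.9, 185 and 142 CPM at 3 µM. Cdc25b, of the same role, was at 214, 180 and 188 CPM and at 218, 220 and 187 CPM, and so not lower. The mitotic kinases and passenger proteins (979 and 984 CPM) and the mitotic kinesins (268 and 280 CPM) were not lower at 3 µM.

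Against vehicle of the same time, 1 call among the mitosis genes was made over the 8 comparisons of a dose. After 6 h, 1 member was called at 0.75 µM, which is 2%, against 0.0749% of all genes, and 0 were called at 0.325, 1.5 and 3 µM, where 0.2%, 0.0999% and 0.05% of all genes were (edgeR FDR below 0.1, 12012 genes). At an unadjusted p below 0.05, these counts were 3, 4, 0 and 1 from the lowest dose to the highest, or 6%, 8%, 0% and 2% of the members, against 8.80%, 7.79%, 7.91% and 7.26% of all genes. DESeq2 called 2 members at 0.75 µM and 0 at the other 3 doses, counts given without the share of all genes that DESeq2 called. After 24 h, 0 members were called at any dose, against 0.066%, 0.0825%, 0.0413% and 0.00825% of all 12118 genes from the lowest dose to the highest, and DESeq2 also called 0. At an unadjusted p below 0.05 the counts were 2, 4, 5 and 6, or 4%, 8%, 10% and 12% of the members, against 8.33%, 7.63%, 7.34% and 9.16% of all genes.

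The gene called at 0.75 µM after 6 h was Cenpe. It was at 121, 102 and 103 CPM at that dose and at 66.2, 65.1 and 65.0 CPM in vehicle, so that the 2 groups did not overlap (log2 fold change 0.73, standard error 0.15, edgeR FDR = 0.0903). The other doses of 6 h lay between 60.1 and 87.0 CPM for Cenpe, and after 24 h its log2 fold change at 0.75 µM was 0.10. The call did not hold in 10 of the 15 fits that left out a library of 6 h, among them each that left out a library of 0.75 µM, nor with only the 6 libraries compared. The log2 fold change lay between 0.65 and 0.78 over all fits, and the FDR went up to 0.510. Smc2 and Smc4, the paired core subunits of condensin, had log2 fold changes of 0.43 and 0.50 at the same dose and did not pass the FDR threshold.

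**Figure D3:**
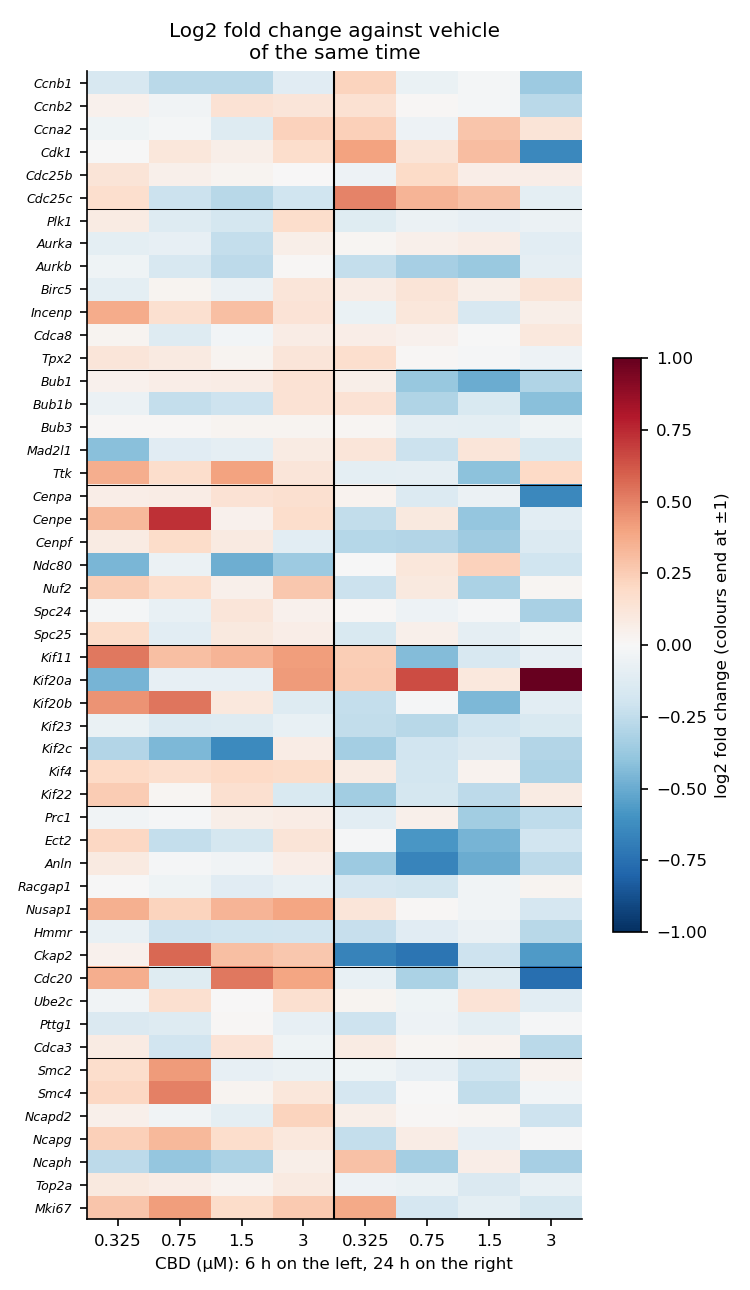
Log2 fold change against vehicle of the same time for each mitosis gene (rows, grouped by role) at each CBD dose (columns, 6 h left of the line and 24 h right of it), with colours that end at ±1. At 24 h and 3 µM, 38 of 50 genes are below 0, and at 6 h Cenpe at 0.75 µM is the gene that passed an edgeR FDR of 0.1.

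Over the 4 doses together, 0 mitosis genes differed from vehicle at either time by edgeR or DESeq2. The share among all genes was 0.749% at 6 h and 0.107% at 24 h, and 2 members (4%) and 5 members (10%) had an unadjusted p below 0.05, against 10.3% and 6.73% of all genes. The fold change was above 0 for 31 of 50 members at 6 h (median 0.04 on the log2 scale) and below 0 for 39 of 50 at 24 h (median -0.08), while the medians of all genes were -0.02 and -0.01. For no member did the 12 CBD libraries lie apart from the 3 vehicle libraries, at 6 h (1.46% of all genes) or at 24 h (0.611%). At 24 h all 5 genes of the spindle assembly checkpoint, all 7 of the spindle and cytokinesis and all 7 of chromosome condensation had fold changes below 0, with medians of -0.10, -0.17 and -0.07 on the log2 scale and none called. Of the cyclins, Cdk1 and its activators 4 of 6 were above 0 (median 0.06), as were 4 of 7 mitotic kinases and passenger proteins (median 0.01), and 51.4% of all genes were below 0. These genes share their 3 vehicle libraries, so the directions of different genes are not independent. The share of reads outside genes also differed between vehicle and the lower doses at 24 h, as described further on, and its part was not tested.

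The members with the smallest p at 24 h over the 4 doses were Anln, Ckap2 and Cenpf. Anln, the actin-binding scaffold of the contractile ring, was at 72.9, 62.7 and 73.4 CPM in vehicle, and at 35.4 CPM in its lowest, 50.6 CPM in its median and 73.2 CPM in its highest CBD library. The highest CBD library thus reached the vehicle level (log2 fold change -0.45, standard error 0.14, edgeR FDR = 0.465). Ckap2 had a log2 fold change of -0.54 (edgeR FDR = 0.667), and in the fit with the covariate described further on, the share of reads outside genes, it was 0.17. For Cenpf the value was -0.27 (edgeR FDR = 0.687). After 6 h, the 3 members with the smallest p were Cenpe (log2 fold change 0.32, edgeR FDR = 0.330), Nusap1 (0.33, edgeR FDR = 0.464) and Kif11 (0.39, edgeR FDR = 0.486).

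A linear trend over the 5 dose steps from vehicle to 3 µM called 0 members at either time by edgeR and DESeq2, against 0.00833% of all genes at 6 h and 0.00825% at 24 h. At an unadjusted p below 0.05 there were 0 members at 6 h and 4 (8%) at 24 h, against 5.79% and 6.59% of all genes. These were Cdc20, Cenpa, Ccnb1 and Bub1b, with slopes of -0.15, -0.13, -0.10 and -0.11 per dose step on the log2 scale and edgeR FDR values between 0.708 and 0.739. At 24 h, 39 of the 50 slopes were below 0 (median -0.03), against 49.0% of all genes. At 6 h, the smallest p belonged to Nusap1 (0.08 per step), Cdc20 (0.09) and Ndc80 (-0.08), with edgeR FDR values from 0.897 to 0.942.

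The change from vehicle to CBD did not differ between 24 h and 6 h for any member by the test of the difference itself (0 called by edgeR and DESeq2, against 0.235% of all genes). At an unadjusted p below 0.05 there were 6 members (12%), against 6.52% of all genes, and all 6 had a lower change at 24 h. The smallest p belonged to Cenpe, with a difference of -0.48 between the log2 changes (standard error 0.16, edgeR FDR = 0.412), Anln (-0.47, edgeR FDR = 0.716) and Cdc20 (-0.60, edgeR FDR = 0.728).

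The doses of CBD were next compared with each other. By the test of any difference among the doses, 0 members were called at 6 h by edgeR and DESeq2, where 0% of all genes were, and 1 was called at 24 h, which is 2%, against 1.93% of all genes. At 6 h, 4 members (8%) had an unadjusted p below 0.05, against 3.76% of all genes, and those with the smallest were Cenpe, Smc2 and Smc4, all with an edgeR FDR of 0.9998. The gene called at 24 h was Cdk1 (edgeR FDR = 0.0353), followed by Ccnb1 (0.105) and Cenpa (0.134). DESeq2 called 3 members in that test, and no member was called without the first or the third library of 3 µM or without the second library of 0.325 µM. The share of all genes called in those fits is not given, so these counts are not set against a background.

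The contrast of 3 µM against the 3 lower doses at 24 h was chosen with earlier results of these same data known. Its FDR values and gaps between groups therefore describe these libraries and are no independent test. It called 5 members (10%), against 10.5% of all genes, and the share of members called was thus at the background. Of the members 8% were lower, with 4.16% of all genes, and 2% higher, with 6.36% of all genes. The 3 libraries of 3 µM lay apart from the 9 of the lower doses for 4 members, all lower, which is 8%, and for 4.6% of all genes. The median log2 fold change of the members was -0.01, with 25 above and 25 below 0.

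Cdk1 (ENSMUSG00000019942, chr10:69335146-69352938 on GRCm38) was at 80.9, 185 and 142 CPM at 3 µM. In the lower doses of 24 h it was at 203 CPM in its lowest, 256 CPM in its median and 310 CPM in its highest library, and in vehicle at 297, 164 and 175 CPM. All 3 libraries of 3 µM lay below all 9 of the lower doses, while vehicle overlapped with both (log2 fold change against the lower doses -0.92, standard error 0.18, edgeR FDR = 0.00518). Cdk1 was called in all 15 fits that left out a library of 24 h. Against vehicle its log2 fold change at 3 µM was -0.64 (standard error 0.21, edgeR FDR = 0.507).

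Cenpa (ENSMUSG00000029177, chr5:30666777-30674830) was at 61.9, 75.1 and 44.3 CPM at 3 µM, and at 75.3 CPM in its lowest, 92.9 CPM in its median and 112 CPM in its highest library of the lower doses. The gap between the groups was narrow (log2 fold change -0.59, standard error 0.15, edgeR FDR = 0.0224), and the FDR was 0.130 without the first and 0.162 without the third library of 3 µM. Ccnb1 (ENSMUSG00000041431, chr13:100778650-100786570) was at 98.2, 96.5 and 75.8 CPM at 3 µM and between 104 and 143 CPM, with a median of 128 CPM, at the lower doses. Its groups did not overlap (log2 fold change -0.41, standard error 0.12, edgeR FDR = 0.0364), and without the same libraries its FDR was 0.129 and 0.208. Cdc20 (ENSMUSG00000006398, chr4:118432901-118437352) was at 27.5, 32.7 and 35.5 CPM at 3 µM and between 38.8 and 54.2 CPM, with a median of 50.4 CPM, at the lower doses (log2 fold change -0.58, standard error 0.16, edgeR FDR = 0.0378). For Cdc20, too, the 3 libraries of 3 µM were below all 9 of the lower doses, and its FDR was 0.238 without the first of them.

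Ttk, the checkpoint kinase Mps1, was the called member that was higher. It was at 91.4, 58.3 and 82.0 CPM at 3 µM and between 43.9 and 72.2 CPM at the lower doses, so that its second library lay within the lower doses (log2 fold change 0.40, standard error 0.14, edgeR FDR = 0.0802). Ttk was called in 6 of the 15 fits that left out a library. Ccnb2 and Mki67 did not pass the test in this contrast (log2 fold change -0.31 and -0.21, edgeR FDR = 0.252 and 0.474). Nor did Kif20a, which was at 3.23, 5.88 and 14.5 CPM at 3 µM and at most 8.65 CPM in the lower doses of 24 h.

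**Figure D4:**
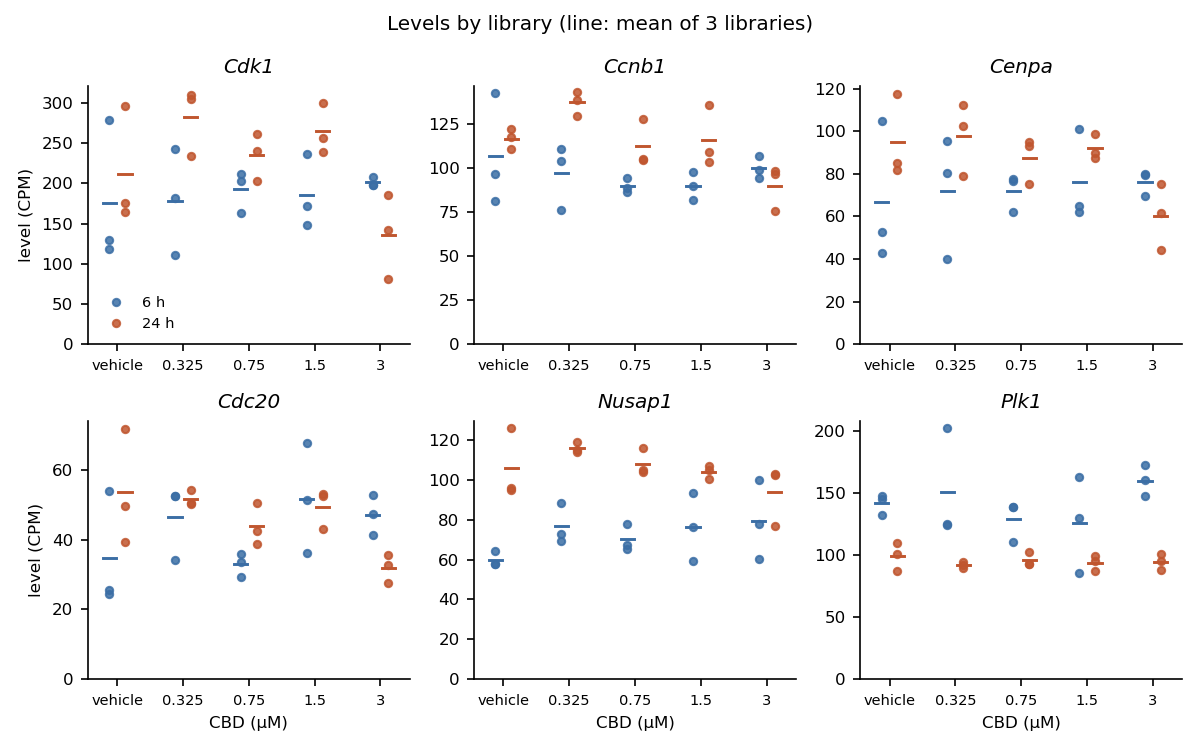
Level in CPM (y axis, from 0) of 6 mitosis genes in each library of 6 h and 24 h by CBD dose (x axis), with a line at the mean of each 3 libraries. For Cdk1, Ccnb1, Cenpa and Cdc20 the 3 libraries of 3 µM at 24 h lie below the 9 of the lower doses of 24 h, and Plk1 at 24 h lies between 86.8 and 109.5 CPM at all doses.

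The share of reads that fell outside genes moved with this contrast. It averaged 21.4% in the 3 libraries of 3 µM at 24 h, and 19.4%, 19.4% and 19.7% at the lower doses in rising order, with 21.4% in vehicle at 24 h. The libraries of 3 µM lay between 20.8% and 21.7%, and those of the lower doses between 18.7% and 20.4%. The share thus did not overlap between the groups of this contrast, and a fit that includes it cannot tell it apart from the dose. With that share as a covariate 0 of the 50 members were called, and 0.248% of all genes were, and the log2 fold change of Cdk1 was -0.91 (edgeR FDR = 0.291). In the fit without the covariate, the count without the first library of 3 µM was 1, without the second 8 and without the third 2. These 3 counts stand without the share of all genes called in the same fits, so they are not set against a background.

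Within groups, too, some members varied with that share. Over the 30 libraries, Pearson's r between the deviation of a gene's log2(CPM + 1) from its group mean and that of the share was -0.63 for Cdk1, -0.71 for Cdc20, -0.70 for Cenpa and -0.59 for Ccnb1. Spearman's rho was -0.50, -0.57, -0.50 and -0.50, and r without the 2 libraries farthest from the median share was -0.44, -0.61, -0.54 and -0.41. Aurka (-0.70), Plk1 (-0.65), Ccna2 (-0.60) and Ube2c (-0.58) had similar values of r. Incenp (0.85), Kif20b (0.69), Top2a (0.68), Hmmr (0.59) and Spc25 (0.59) varied in the other direction. The centre of the members was near that of all genes, with a median r of -0.10 and 52.0% below 0. The values were 0.0046 and 49.7% for the 10455 genes at 5 CPM or more. The members named here lay in the tails. Of the 10455 genes, 5.15% had an r at or below that of Ube2c, and 4.60% at or above that of Spc25. These r values describe libraries of unequal depth. The part of the share of reads outside genes in the differences between groups was not tested.

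**Figure D5:**
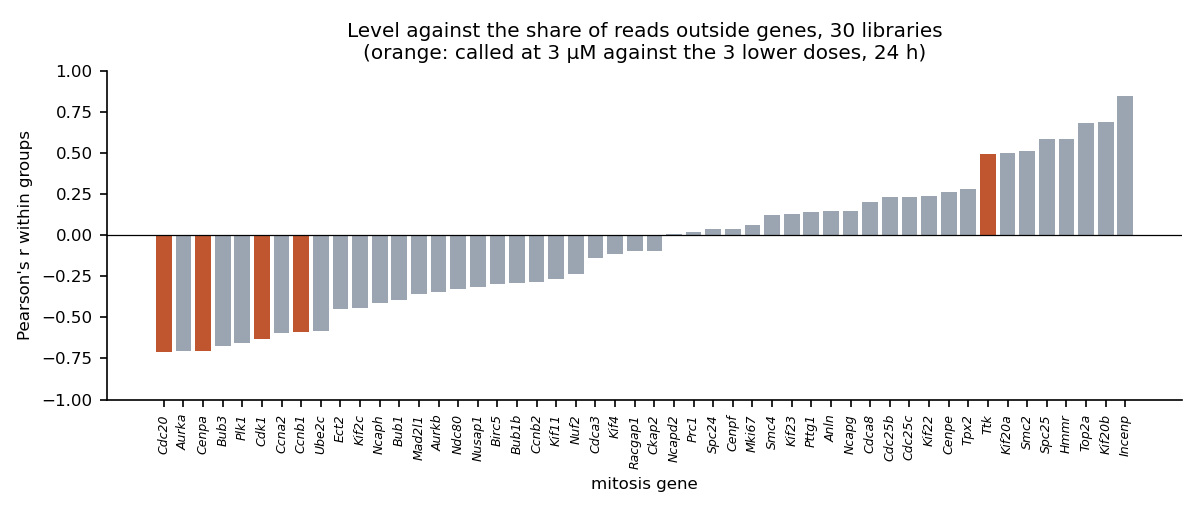
Pearson's r (y axis) between the level of each mitosis gene (x axis) and the share of reads outside genes, as deviations from group means over 30 libraries. Of the 5 genes called at 3 µM against the lower doses (orange), Cdc20, Cenpa, Cdk1 and Ccnb1 lie between -0.71 and -0.59, and the values run from -0.71 for Cdc20 to 0.85 for Incenp.

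Genes that act before mitosis or beside its machinery were followed in 7 lists with 155 genes in all, of which 1 had no row. Over the 7 lists, 30 of 150 genes tested were called with time in vehicle, against 26.7% of all genes. With time in vehicle, the 18 cyclins, kinases and E2F factors of G1 and S phase had 5 genes that fell and 0 that rose (median log2 fold change -0.37), while 12.5% of all genes rose and 14.2% fell. Ccnd1, which starts the passage through G1, fell by 1.45 on the log2 scale (edgeR FDR = 5.78e-06), its kinase Cdk6 by 1.19, Ccne1 by 0.86 and Ccnd2 by 0.37. Of 13 inhibitors of the cell cycle that were tested, 5 rose and 4 fell. Cdkn1b (p27) and Cdkn2b (p15) rose by 1.27 and 1.36 on the log2 scale, and Cdkn1a (p21) and Gadd45g fell by 0.65 and 0.89. Of 39 DNA replication genes, 5 rose, among them the polymerase subunits Pole (0.60) and Pold1 (0.61), and 1 fell, the helicase subunit Mcm7 (-0.39).

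Of 34 other kinetochore and centromere genes 2 rose with time in vehicle, Cenpm (log2 fold change 0.67) and Kntc1 (1.05), and 1 fell, and the median was 0.14. The calls in this list and in those that follow stand against 12.5% of all genes that rose and 14.2% that fell. Of 17 subunits of the anaphase-promoting complex and its enzymes, Anapc13 (0.85) and Anapc2 (0.51) rose, while Ube2s (0.14) and Anapc5 (0.09) did not pass the test. Of 14 cohesin and separase genes, Esco2 (0.64), which acetylates cohesin, rose and Wapl (-0.76), which releases cohesin from chromosomes, fell, while Mau2 (0.06) and Nipbl (-0.19) did not pass the test. Of 15 regulators of the mitotic transcription programme that were tested, Tfdp2 (0.52) rose, and E2f4 (-1.36) and Mybl2, which is B-Myb (-0.70), fell. The NF-Y subunit Nfyb (0.10) and the MuvB subunit Lin37 (-0.39) did not pass the test.

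In the contrast of 3 µM against the lower doses at 24 h, several of the same G1 genes had the opposite sign. Ccnd1 (log2 fold change 0.47, edgeR FDR = 0.0750), Ccnd2 (0.36, edgeR FDR = 0.0341) and Cdk6 (0.55, edgeR FDR = 0.0342) were higher at 3 µM, with 4 of 18 genes of the list higher and 1 lower (6.36% and 4.16% of all genes), while Ccne1 (-0.21) did not pass the test. Cdkn1b was lower (-0.53, edgeR FDR = 0.0230), and Cdkn2b (-0.44) did not pass the test. Of the replication genes 3 were higher, among them Mcm7 (0.57) and Pola1 (0.55), and 3 were lower. Nfyb was lower (-0.48, edgeR FDR = 0.0249), and of the kinetochore list Pmf1 (0.56) was higher and Zwint (-0.41) lower. Over the 7 lists 21 of 149 genes were called in this contrast, against 10.5% of all genes. When the share of reads outside genes entered the fit, 0 were called, against 0.248% of all genes. In the 4 doses together against vehicle, 0 of 149 list genes were called at 24 h by edgeR, against 0.107% of all genes. An unadjusted p below 0.05 was found for 11 of them, against 6.73% of all genes. At 6 h, 3 of 149 list genes were called, against 0.749% of all genes. These were the inhibitors Cdkn1a, Gadd45b and Gadd45g, whose change over the 4 doses was below 0. The difference between the times in that change was called for Gadd45g, an inhibitor of Cdk1 with cyclin B1.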

How the data were processed

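Libraries were grouped by dose and time from their labels. The 50 members, the 7 lists and the markers were chosen with earlier results of these data known. So was the contrast of 3 µM against the lower doses at 24 h. Per the methods and labels, the authors trimmed QuantSeq 3′ reads, mapped them to GRCm39 with STAR (2.7.5c) and deposited raw counts per Ensembl gene from HTSeq (1.99.2), without normalization. Reads outside genes were 20.0% of the reads over all libraries (17.7% to 22.2%) and ambiguous reads 4.92%, and these lines stayed out of library sizes and tests. Reads shared by overlapping genes or close copies were not counted, so genes with such partners are uncertain.

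The tests ran in edgeR 4.0.16 on R 4.3.3 (filterByExpr on groups, TMM, quasi-likelihood F-test), as 15 libraries per time, or all 30 for comparisons across times, with p-values adjusted by Benjamini-Hochberg across every gene of a fit and called at an FDR below 0.1. For the biological coefficient of variation, 0.179 (6 h) and 0.150 (24 h) were found. DESeq2 1.42.0 was an alternative. A standard error is the log2 fold change over the square root of F. Vehicle was 0 and 3 µM was 4 in the dose trend. The steps were tested on simulated data.

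Genes named with values were 15 fixed members spread over the 8 roles, members called in the time, mean, trend, among-dose and time-difference comparisons (12 at most in each), the 3 members with the smallest p in each of these, and up to 4 genes of each list. Ttk, Mybl2, Bub1b as a slope, the members called at single doses or within doses, and the extremes of r were named after their values were seen. Symbols and gene positions came from GENCODE M21 on GRCm38 and promoter sequences from RefSeq on GRCm38.p6, both older than the assembly of the counts, and no position was converted. The correlation with the share of reads outside genes used 1 CPM as pseudocount and genes averaging 5 CPM or more, and was added after the values were seen. Intervals and floors are not given, because each member had reads in every library.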

Additional observations from a re-analysis of the deposited data

How the results depend on the processing

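Results were recomputed with DESeq2, with RLE scaling, without a filter, with a stricter filter of 10 counts in each library, without mitochondrial genes, with the share of reads falling outside genes as covariate, with only the 6 libraries compared, with dose in µM for the trend, and without each library in turn. No paired analysis was possible because no replicate number in the labels links a library of a group to a library of another. The number of members called with time in vehicle was 14, between 11 and 16 under other settings and between 10 and 15 without single libraries. With no filter, 1 member was called at 0.75 µM after 24 h, 3 at 3 µM after 24 h and 5 among the doses after 24 h, where the stricter filter gave 2 and DESeq2 gave 3. With the covariate, 1 member was called at 0.325 µM and 2 at 0.75 µM after 6 h, 0 among the doses and 0 at 3 µM against the lower doses after 24 h, and 1 in the difference between times (Cdc20), while Ckap2 over the 4 doses at 24 h changed sign to 0.17. With only the 6 libraries compared, 0 were called at 0.75 µM after 6 h and 1 at that dose after 24 h, and DESeq2 called 2 at 0.75 µM after 6 h. Without single libraries the counts ran from 0 to 1 at 0.75 µM, 1.5 µM and over the 4 doses after 6 h, from 0 to 3 at 3 µM after 24 h, from 0 to 4 among the doses after 24 h, and from 1 to 8 at 3 µM against the lower doses. The cause of these changes was not tested, and at 3 µM against the lower doses the fit with the covariate cannot tell the share from the dose. Nor can it for a lower dose against vehicle after 24 h. Calls at 3 µM rest on 3 libraries, and differences near the standard errors were not detectable at this depth. The counts under other settings stand here without the share of all genes called in the same fit, so they are not set against a background.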
